A study of Homo sapiens with 2 samples.

Results

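The 10 genes described here are the MHC class II genes HLA-DRA, HLA-DRB1, HLA-DPA1, HLA-DPB1, HLA-DQA1, HLA-DQB1, HLA-DMA and HLA-DMB, together with CD74 and CIITA. They were taken by gene symbol from tables of 27685 genes and 63714 RefSeq transcripts, of which the 10 genes account for 19 transcripts. The tables hold 2 RNA-seq libraries, 1 of untreated H2087 cells and 1 of untreated H596 cells. Both are established cell lines labelled as lung adenocarcinoma and were cultured in RPMI medium with fetal bovine serum and antibiotics. Neither line was sequenced more than once, so there is no replicate check and no difference has a test or a p-value. Levels are the deposited FPKM (fragments per kilobase of transcript, scaled to library size), which can be compared between genes. Each is given with a 95% Wilson interval of the gene's share of the library's total estimated count, carried over to FPKM. Such intervals cover counting error only.

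Class II molecules are pairs of an alpha and a beta chain that show peptides from endosomes to CD4+ T cells. The chains assemble with the invariant chain, encoded by CD74, which fills the groove until endosomal proteases cut it away, and HLA-DM then helps exchange its last fragment for a peptide. Transcription of these genes depends on CIITA, a coactivator that does not bind DNA itself but joins the RFX, CREB and NF-Y factors at the X and Y boxes of their promoters. Professional antigen-presenting cells make class II constantly, whereas most epithelial cells do so mainly after interferon gamma, although alveolar type 2 cells are a known exception.

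Promoter sequences were read for the members because the X and Y boxes are where this shared control takes place. RefSeq windows on GRCh38.p14, each of 250 bases before and 50 after an annotated start, were found for 8 of the 10 genes, all but CIITA and HLA-DRA. The stretches below run 5′ to 3′ on the gene's strand from 120 to 31 bases before the start, a span picked after the windows had been read. Capitals mark AGNAAC, a narrow form of the core letters of the X box bound by RFX, and ATTGG, the Y box bound by NF-Y. Either strand was searched, and no marked matches overlap. A box with other letters, or cut by the edge of the span, is not marked. For example, HLA-DMA holds agtgactgatgatg unmarked, where HLA-DMB has AGTAACtgatgatg. Where ATTGG lies on the opposite strand it reads CCAAT. The gene positions given later are those of hg19 and are not to be mixed with these.
CD74, chr5:150412941-150413030, minus strand: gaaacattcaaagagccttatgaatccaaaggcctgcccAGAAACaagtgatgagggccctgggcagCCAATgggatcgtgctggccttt
HLA-DRB1, chr6:32589879-32589968, minus strand: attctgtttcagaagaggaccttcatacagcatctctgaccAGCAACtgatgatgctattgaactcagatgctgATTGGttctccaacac
HLA-DPA1, chr6:33073680-33073769, minus strand: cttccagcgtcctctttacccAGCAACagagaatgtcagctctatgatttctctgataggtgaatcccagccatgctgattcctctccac
HLA-DPB1, chr6:33075870-33075959, plus strand: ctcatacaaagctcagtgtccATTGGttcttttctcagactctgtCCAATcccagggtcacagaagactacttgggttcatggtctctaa
HLA-DQA1, chr6:32637286-32637375, plus strand: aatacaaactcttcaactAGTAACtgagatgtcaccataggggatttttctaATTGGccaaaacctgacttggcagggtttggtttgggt
HLA-DQB1, chr6:32666688-32666777, minus strand: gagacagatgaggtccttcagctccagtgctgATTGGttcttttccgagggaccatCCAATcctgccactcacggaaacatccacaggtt
HLA-DMA, chr6:32953128-32953217, minus strand: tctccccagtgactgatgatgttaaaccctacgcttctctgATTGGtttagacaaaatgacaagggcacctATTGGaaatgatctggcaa
HLA-DMB, chr6:32941059-32941148, minus strand: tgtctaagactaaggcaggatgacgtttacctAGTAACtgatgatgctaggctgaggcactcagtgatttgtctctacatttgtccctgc

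Over the whole windows, 6 of the 8 genes held AGNAAC and 7 held ATTGG, against 42.4% and 34.6% of all 35116 windows of the same length. Within the printed span, AGNAAC was found in 5 of the 8 and ATTGG in 6, against 14.5% and 17.7% of all windows over the same span. Both stood together in CD74, HLA-DRB1 and HLA-DQA1, and in 2.56% of all windows. Because the span was picked after these windows had been read, the shares within it cannot test an excess. For HLA-DPA1 only the window of the downstream start was used, taken as that of its transcript with counts. The background kept every window. HLA-DQA1, which had 0 counts in both libraries, carried both matches, as did CD74, the most abundant member. A match to such short letters is a description of the sequence and is not evidence of binding. These counts hold only for the chosen letters and span, so a gene without a match was not shown to lack the box.

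The estimated counts summed to 46961500 in H2087 and 55387847 in H596, of which the 10 genes took 0.0230% and 0.0213%. The epithelial markers EPCAM, CDH1, KRT7, KRT8, KRT18 and KRT19 had an FPKM of at least 52.3 in both libraries. Their levels differed in both directions, KRT18 having 3607 in H2087 and 234 in H596, and KRT19 561 and 2183. The lung adenocarcinoma markers NKX2-1 and NAPSA reached 109.99 and 21.9 in H2087 but 0.508 and 0.0645 in H596, so the H596 library went against that part of its label. The surfactant genes SFTPB and SFTPC, also on the list, were nearly absent from both, with 22 and 0 counts in H2087 and 0 and 2 in H596. Instead it held the squamous markers TP63 at 55.2 and KRT5 at 106, against 0.183 and 0 counts in H2087. Of 12 markers of leukocytes that carry class II, 5 had 0 counts in H2087 and 6 in H596, where 36.3% and 36.0% of all genes had none. PTPRC (the common leukocyte antigen), MS4A1 and CD79B were at 0 counts in both, and so were all 3 T cell markers. In H2087, however, CD79A had 223 counts, CSF1R 308 and ITGAX 167, against 6, 0 and 2 in H596. The summed FPKM of the 12 was 135 in H2087 and 26 in H596, of which CD68, a lysosomal protein found in many cell types, made up 128 and 25.6. The part of such cells in the class II levels was not tested.

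CIITA (gene 4261) lies on chromosome 16 of hg19 from 10971055 to 11018840. It had an FPKM of 1.81 (95% interval, 1.61 to 2.02) from 299 counts in H2087 and 2.26 (2.07 to 2.46) from 534 counts in H596. The coactivator was thus listed at a low level in both cell lines, at rank 11399 and 11238 of 27685 genes. The ratio of H596 to H2087 was 1.25 (95% counting interval, 1.08 to 1.44), and the intervals did not overlap. On the log2(FPKM + 1) scale used for all differences, H596 minus H2087, the difference was 0.21, against a median of 0.12 over the 13048 genes whose FPKM averaged at least 1. That pseudocount of 1 understates the differences of low genes.

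CD74 (gene 972, chromosome 5, 149781200 to 149792499), which encodes the invariant chain, was the highest of the 10 in both libraries. Its FPKM was 114 (95% interval, 111 to 116) from 8212 counts in H2087 and 75.6 (73.8 to 77.4) from 6543 counts in H596. It therefore stood above the FPKM of 100 that the study took as high expression in H2087, at rank 606, and below it in H596, at rank 895. The level in H2087 was 1.51-fold (1.46 to 1.56) that in H596, a log2 difference of -0.58. Among the 8 members with counts, CD74 and HLA-DPB1 were the only ones lower in H596. Of the 13048 genes whose FPKM averaged at least 1, 55.2% were higher in H596 by any amount.

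**Figure D1:**
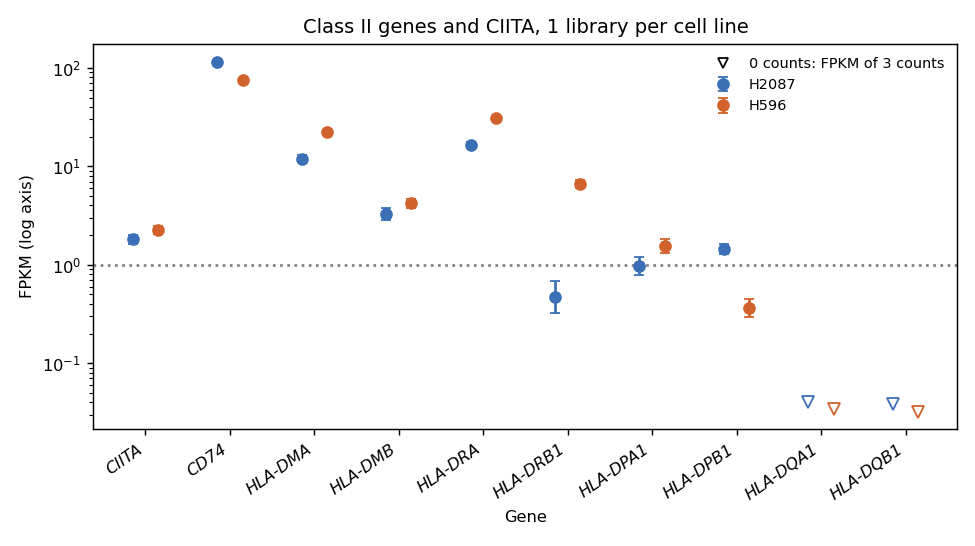
FPKM on a log axis of the 10 genes in the H2087 and H596 libraries, 1 library each, with 95% Wilson intervals as bars. The dotted line is an FPKM of 1, and open triangles mark genes with 0 counts at the FPKM that 3 counts would give. CD74 lies highest at 114 and 75.6, the DR, DP and DM genes spread from 0.363 to 31.3, and both DQ genes are at 0 counts.

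The DR chains were both higher in H596, and HLA-DRB1 had the largest difference of the 8 members with counts. HLA-DRA (gene 3122, chromosome 6, 32407619 to 32412826), the DR alpha chain, had an FPKM of 16.5 (15.5 to 17.5) from 1014 counts in H2087. In H596 it had 31.3 (30.0 to 32.6) from 2278 counts, or 1.90-fold (1.76 to 2.05) the level in H2087, a log2 difference of 0.89. It was second to CD74 among the members in both libraries. HLA-DRB1 (gene 3123, 32546547 to 32557613), its beta chain partner, had an FPKM of 0.471 (0.326 to 0.681) from 28 counts in H2087 and 6.61 (6.03 to 7.24) from 457 counts in H596. This was a 14.0-fold higher level (9.57 to 21.3) in H596, a log2 difference of 2.37. In such bulk libraries, fewer cells carrying the RNA and less RNA per cell cannot be told apart. HLA-DRA stood 35-fold (24.0 to 52.9) above HLA-DRB1 in H2087 and 4.73-fold (4.28 to 5.24) above it in H596, so the partner chains were listed at less unequal levels in H596. HLA-DRB1 has near-identical paralogs and many alleles, and how reads that fit several of them were assigned is not stated, so its value is uncertain. Of the paralogs, HLA-DRB5 had 0 counts in H2087 and 4 in H596 and the pseudogene HLA-DRB6 had 0 in both, while HLA-DRB3 and HLA-DRB4 were not analysed here.

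The DP chains were low and went in opposite directions. HLA-DPA1 (gene 3113, 33032346 to 33048555), the alpha chain, had an FPKM of 0.969 (0.777 to 1.21) from 79 counts in H2087 and 1.56 (1.32 to 1.83) from 149 counts in H596, a ratio of 1.61 (1.21 to 2.14). HLA-DPB1 (gene 3115, 33043703 to 33057473), the beta chain, had 1.45 (1.29 to 1.63) from 283 counts in H2087 and 0.363 (0.293 to 0.449) from 84 counts in H596. It was the reverse of its partner, being 4.0-fold (3.12 to 5.16) higher in H2087. The alpha chain was at 0.668 (0.513 to 0.859) of the beta chain in H2087 and at 4.29-fold (3.26 to 5.67) of it in H596. These genes lie head to head on opposite strands. The HLA-DPA1 transcript that took all its counts, NM_033554, has its start 2248 bases away from the start of HLA-DPB1. The other 2 listed HLA-DPA1 transcripts, which overlap HLA-DPB1 by 4853 bases, had 0 counts. The library kit was stranded, but whether strand was used in counting is not stated.

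The DQ genes were not detectable at this depth. HLA-DQA1 (gene 3117, 32605183 to 32611429) and HLA-DQB1 (gene 3119, 32627241 to 32634466) had 0 counts in both libraries. Taking 3 counts as the limit that a count of 0 allows, HLA-DQA1 could have had an FPKM of up to 0.0406 in H2087 and 0.0343 in H596, and HLA-DQB1 up to 0.0382 and 0.0322. Counts of 0 were found for 36.3% of all genes in H2087 and 36.0% in H596. The DQ genes are also highly polymorphic, and the part of alleles that differ from the reference was not tested.

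HLA-DM, which exchanges peptides on the other class II molecules and does not itself present them, was higher in H596 for both chains. HLA-DMA (gene 3108, 32916391 to 32920899) had an FPKM of 12.0 (11.1 to 12.9) from 644 counts in H2087 and 22.4 (21.3 to 23.6) from 1426 counts in H596. The ratio was 1.87 (1.70 to 2.06), and the log2 difference was 0.85. HLA-DMB (gene 3109, 32902406 to 32908847) had 3.28 (2.87 to 3.74) from 220 counts and 4.21 (3.79 to 4.69) from 335 counts, a ratio of 1.29 (1.08 to 1.53). HLA-DMA was 3.65-fold (3.13 to 4.27) above HLA-DMB in H2087 and 5.31-fold (4.71 to 6.0) in H596. HLA-DRA stood at 1.38-fold (1.25 to 1.52) of HLA-DMA in H2087 and 1.40-fold (1.31 to 1.49) in H596, a pair picked after the values were seen.

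The levels in H2087 ran from CD74 through HLA-DRA, HLA-DMA, HLA-DMB, CIITA, HLA-DPB1 and HLA-DPA1 to HLA-DRB1. The intervals of CIITA and HLA-DPB1 overlapped there, and those of the other neighbours did not. In H596 the order was CD74, HLA-DRA, HLA-DMA, HLA-DRB1, HLA-DMB, CIITA, HLA-DPA1 and HLA-DPB1, with no neighbouring intervals overlapping. An FPKM of at least 1 was reached by 6 of the 10 genes in H2087, where 45.3% of all genes reached it, and by 7 in H596, where 45.5% did. The interval of HLA-DPA1 in H2087 contained 1, so its side of that line is within counting error. The 6 DR, DP and DQ chains summed to 19.4 FPKM in H2087 and to 39.8 in H596, of which HLA-DRA held 85.1% and 78.6%. CD74 stood at 5.88 times that sum in H2087 and at 1.90 times in H596.

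A mean FPKM of at least 1 was reached by 7 of the 10 genes, HLA-DPB1 and the DQ genes being the exceptions, and HLA-DRB1 and HLA-DPA1 reached it only through H596. Of these, HLA-DRB1 alone differed at least 2-fold on the log2(FPKM + 1) scale, higher in H596, and 0 were 2-fold lower there. HLA-DPB1, left out by this filter with a mean FPKM of 0.907, was 4.0-fold lower in H596 by the ratio of FPKM and had a log2 difference of -0.85, which became -1.74 with a pseudocount of 0.1, -1.12 with TPM and -1.58 with counts scaled by TMM (edgeR's trimmed mean of M-values). Among the 13048 genes compared, 32.4% differed at least 2-fold, 18.2% being higher and 14.2% lower in H596, so a count of 1 is near the background. The median difference of these 7 was 0.38, against 0.12 over all genes compared. With FPKM rescaled to TPM (FPKM set to the same sum over genes in each library), which moved the median of all genes to 0.30, HLA-DRA at 1.09 and HLA-DMA at 1.06 also passed the 2-fold line.

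**Figure D2:**
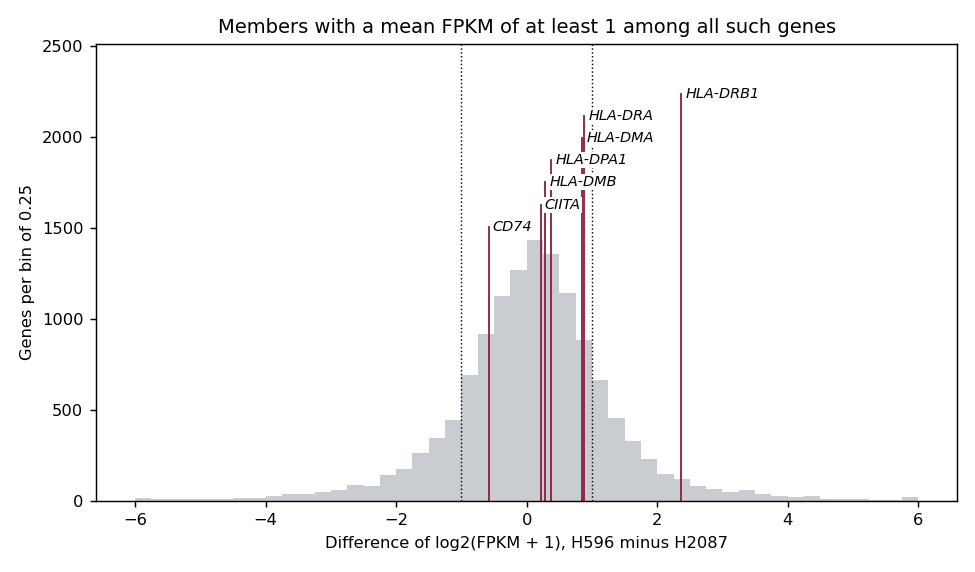
Differences of log2(FPKM + 1), H596 minus H2087, for the 13048 genes whose FPKM averaged at least 1, as gene counts in bins of 0.25 (values beyond 6 are placed in the end bins). Red lines mark the 7 members among them and dotted lines the 2-fold limits. HLA-DRB1 at 2.37 is the member outside the limits, and CD74 at -0.58 is the member below 0.

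Transcript values showed how the members were composed. CD74 is made in a short and a long form, the long one carrying an added thyroglobulin-like domain that inhibits cysteine proteases of the cathepsin L kind. The short form NM_004355, of 1489 bases, had an FPKM of 104 (102 to 106) in H2087 and 61.0 (59.3 to 62.7) in H596. The long form NM_001025159, of 1681 bases, had 9.82 (9.16 to 10.5) in H2087 and 14.4 (13.7 to 15.2) in H596. The long form was thus 1.47-fold (1.34 to 1.60) higher in H596, whereas the short form was 1.70-fold (1.65 to 1.77) higher in H2087. Its share of the gene's FPKM was 8.63% in H2087 and 19.1% in H596. A further transcript, NM_001025158, had 0 and 14 counts.

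For CIITA, the transcript NM_001286402, of 4657 bases, held 30.9% of the gene's FPKM in H2087 and 72.1% in H596. It had an FPKM of 0.558 (0.468 to 0.665) from 125 counts and 1.63 (1.48 to 1.79) from 430 counts, 2.92-fold (2.38 to 3.59) higher in H596. The shorter NM_001286403, of 2902 bases, had 0.925 (0.779 to 1.10) from 129 counts and 0.447 (0.356 to 0.561) from 74 counts, 2.07-fold (1.54 to 2.79) higher in H2087. The noncoding NR_104444 had 45 and 30 counts, and NM_000246, which differs in length from NM_001286402 by 3 bases, had 0 in both. All 4 are listed from the same first base, so the tables do not tell which of the known CIITA promoters was in use. The division of reads between transcripts is an estimate whose error these intervals do not cover.

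**Figure D3:**
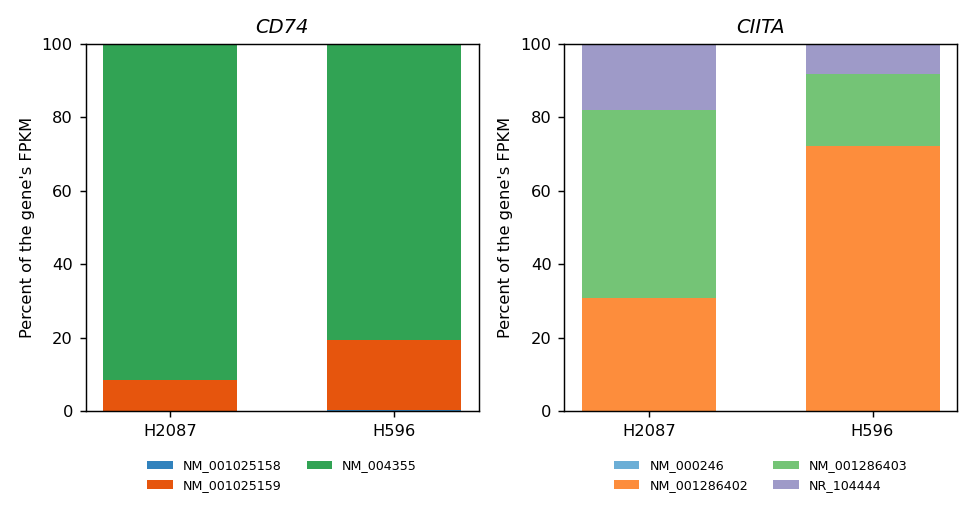
Percent of the gene's FPKM held by each listed transcript of CD74 and CIITA in the H2087 and H596 libraries, 1 library each. NM_001025159 of CD74 has 8.63% and 19.1%, and NM_001286402 of CIITA has 30.9% and 72.1%.

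Of the other class II genes, 7 of the 9 on the list were analysed. HLA-DOB, a chain of the HLA-DM modulator HLA-DO, stood at 1.55 FPKM (1.28 to 1.88) in H2087 and 1.02 (0.819 to 1.27) in H596, and its partner HLA-DOA had 0 counts in both. The others, HLA-DQA2, HLA-DQB2, HLA-DRB5, HLA-DRB6 and HLA-DPB2, had at most 4 counts in either library.

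The factors that bind the class II promoter were present throughout. All 7 had an FPKM of at least 1.78 in both libraries, and their median difference was 0.46. Only NFYA, a subunit of NF-Y, was at least 2-fold higher in H596, at 6.80 in H2087 and 15.1 in H596, and 0 were 2-fold lower, where 18.2% and 14.2% of all genes compared were and their median was 0.12. Within the RFX complex, RFX5 had 28.7 and 22.1, RFXANK 17.3 and 30.1, and RFXAP 1.78 and 2.82, so RFXAP was the lowest of the 3 in both. NFYC, another NF-Y subunit, had 19.2 and 35.8, the highest of the list in H596. Of 6 coactivators, KAT2B, CREBBP and CARM1 were at least 2-fold higher in H596 and 0 lower, against the same 18.2% and 14.2% of all genes, with a median difference of 0.97. KAT2B, a histone acetyltransferase, had 2.38 in H2087 and 9.34 in H596. CREBBP, another acetyltransferase, had 8.36 and 18.6, and CARM1, an arginine methyltransferase, 12.8 and 27.3. The chromatin remodeller SMARCA4 was the highest of the list in both, at 20.3 and 30.6.

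Along the route by which interferon gamma induces CIITA, 4 genes were at least 2-fold higher in H596. Interferon gamma itself, IFNG, had 0 counts in both libraries. Of the 10 genes counted in this list, 7 had a mean FPKM of at least 1. IFNGR1, JAK2, IRF1 and USF1 were the 4, JAK2 having passed that filter only through H596, and 0 were 2-fold lower. The median difference was 1.04, against 0.12 over all genes compared, of which 18.2% were at least 2-fold higher and 14.2% lower. The receptor chain gene IFNGR1 had 14.0 (13.3 to 14.8) in H2087 and 67.2 (65.8 to 68.7) in H596. The kinase gene JAK2 had 0.636 (0.545 to 0.743) from 159 counts and 8.03 (7.72 to 8.36) from 2411 counts, 12.6-fold higher in H596. IRF1, a factor that acts on the CIITA promoter, had 8.92 and 51.8, or 5.81-fold higher in H596, and USF1, which acts there too, had 22.8 and 48.1. CIITA itself stood at 1.81 and 2.26 beside these values.

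In the endosomal list, 4 of 10 genes were at least 2-fold higher in H596 and 1 was 2-fold lower, against 18.2% and 14.2% of all genes compared. The median difference was 0.75, against 0.12 over all genes. CTSH had 49.0 in H2087 and 373 in H596, CTSD 263 and 1075, CTSV 2.72 and 10.9, and CTSL 28.0 and 73.3. CTSB was the gene lower in H596, at 214 and 77.8. CTSS, the protease best known for the last cuts of the invariant chain, had 22 and 20.1, and CTSL stood at 1.27-fold of it in H2087 and 3.64-fold in H596. IFI30, a thiol reductase of the same compartment, had 55.1 and 66.4. SPPL2A, which removes the membrane-bound remnant of CD74, had 14.8 in H2087 and 46.2 in H596. Of the ubiquitin ligases that turn class II over, MARCH8 had 4.29 and 4.70 and MARCH1 had 0 and 40 counts.

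**Figure D4:**
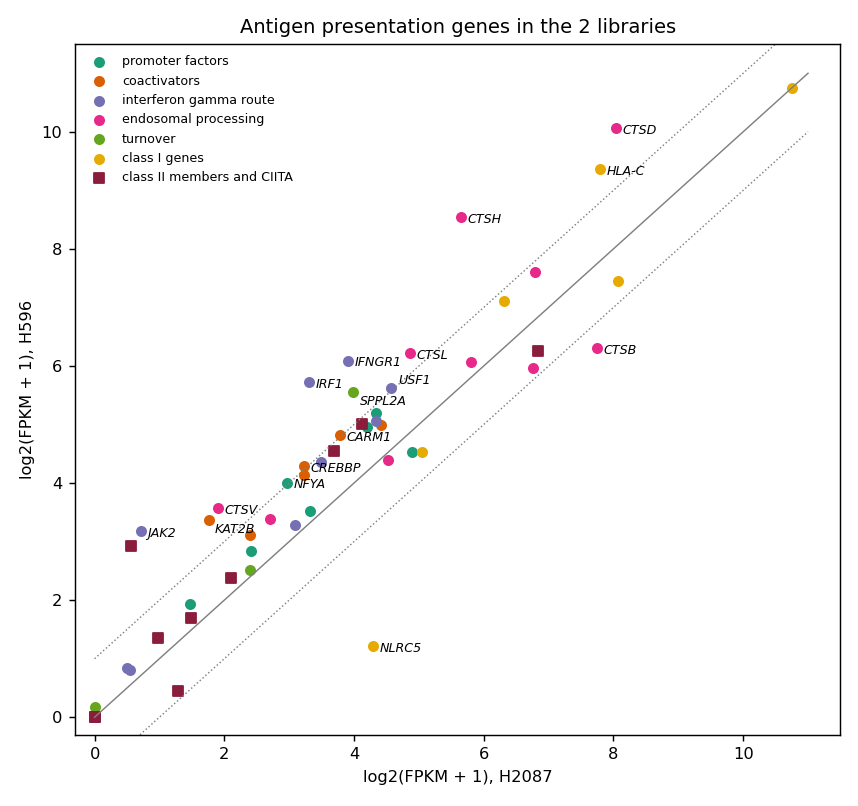
log2(FPKM + 1) in H596 against H2087 for the members (red squares) and the listed genes of the pathway, with the line of equality and dotted 2-fold limits. Gene names are given for listed genes, other than members, outside the limits. JAK2, IRF1, IFNGR1 and CTSH lie above them and NLRC5 and CTSB below, while the members lie within the limits apart from HLA-DRB1.

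NLRC5, the class I counterpart of CIITA, had 18.6 (18.1 to 19.0) in H2087 and 1.32 (1.21 to 1.44) in H596, 14.0-fold higher in H2087, whereas CIITA was 1.25-fold higher in H596. Of the 6 genes counted in the class I list, NLRC5 included, 3 were higher and 3 lower in H596. Of all genes compared, 55.2% were higher there by any amount. The median difference of the 6 was -0.26, against 0.12 over all genes compared. HLA-C had 221 and 657, and HLA-B 267 and 174. B2M, the light chain shared by class I molecules, had 1719.9 and 1724, so it counted as higher although its intervals overlapped.

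The class II genes share their part of chromosome 6 with other genes. Of the 23 genes listed wholly between the start of HLA-DRA at 32407619 and the end of HLA-DPB1 at 33057473, 14 are class II genes or pseudogenes and 9 are not. An FPKM of at least 1 was found for 5 of the 14 in H2087 and 6 in H596, and for 7 of the 9 in both, where 45.3% of all genes reached it in H2087 and 45.5% in H596. The peptide transporter genes TAP1 and TAP2 had 22.8 and 26.9 in H2087 and 54.2 and 48.6 in H596. The immunoproteasome genes PSMB8 and PSMB9 had 113 and 57.6 in H2087 and 169 and 178 in H596. BRD2, a bromodomain gene, had 55.2 and 92.0, and BTNL2, just outside the interval, had 0 counts in both. Of the 7 neighbours compared, all were higher in H596, and TAP1, PSMB9, PSMB8-AS1 and LOC100294145 at least 2-fold so, the last 2 named after their values were seen. Of all genes compared, 55.2% were higher in H596 by any amount and 18.2% at least 2-fold. The median difference was 1.20 over these 7 and 0.61 over the 6 class II genes of the region that passed the same filter, HLA-DRB1 and HLA-DPA1 only through H596.

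**Figure D5:**
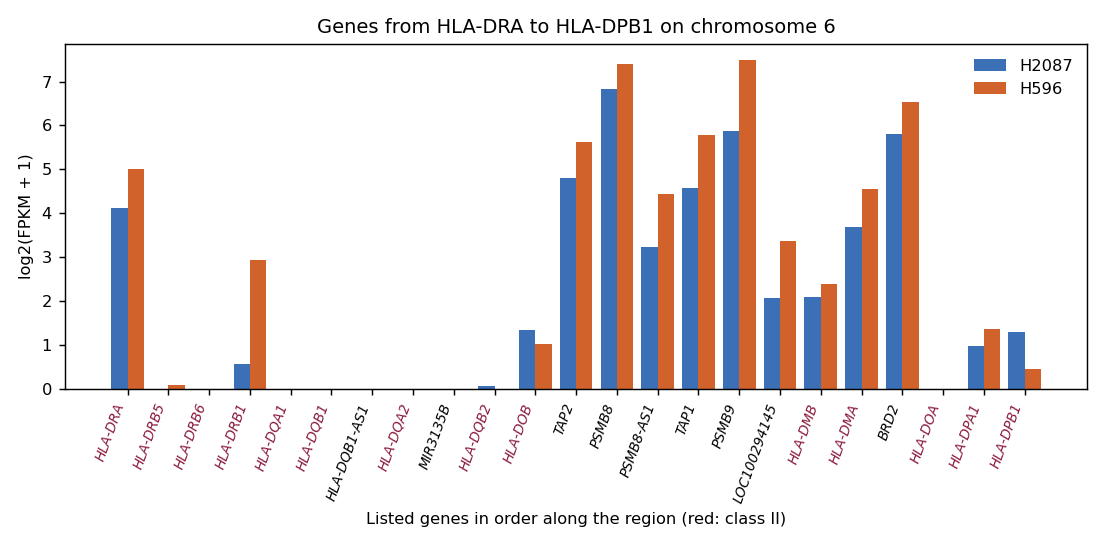
log2(FPKM + 1) in the H2087 and H596 libraries of the 23 genes listed from HLA-DRA to HLA-DPB1 on chromosome 6, in order along the chromosome but not to scale. Class II genes are named in red; their bars are mostly lower than those of TAP2, PSMB8, TAP1, PSMB9 and BRD2, and the DQ genes have none.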

How the data were processed

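RNA-seq data of 1 H2087 and 1 H596 library were used. Total RNA went into a stranded mRNA kit, and the authors sequenced the libraries on an Illumina instrument, aligned reads to hg19 with HISAT2 2.0.5 and estimated RefSeq transcripts with StringTie 1.3.3b, versions being those of the submitters' processing notes. The deposited tables give an estimated count as a rounded whole number, with no account of its making. Deposited FPKM is scaled by transcript length and library size. Whether both mates were counted is not stated; if so, intervals are too narrow.

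Genes were compared by log2(FPKM + 1), with a filter of a mean FPKM of at least 1. Intervals are 95% Wilson intervals of the count share, ratios carry exact conditional intervals of 2 counts, and 3 counts are the limit for a count of 0 (Python 3.11.15, scipy 1.17.1, pandas 2.3.3). The intervals and 2-fold calls were tried on data simulated with counting error only. Such data cannot test variation between replicates or the assignment of reads to genes and transcripts. edgeR 4.0.16 in R 4.3.3 gave TMM factors for an alternative. Named were the 10 members and, of each listed gene group, genes at least 2-fold different with a mean FPKM of at least 1 and its highest and lowest; others named are examples by role. The members and lists were chosen with earlier results of these data known. Strands are from GENCODE 44 mapped to GRCh37, whose genes overlapped the deposited positions of all 10. All per-sample columns were used. Some genes of the lists are not reported here and were left out of their counts.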

Additional observations from a re-analysis of the deposited data

How the results depend on the processing

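The number of members at an FPKM of at least 1 and the number differing at least 2-fold were recomputed under 15 alternatives, of which 13 left the count within 1.5 times. The number expressed was 6 in H2087 and 7 in H596 in the main setting. It was 7 and 7 at an FPKM of 0.5, 4 and 6 at an FPKM of 2, and 8 and 7 at a TPM of 1. Which library had more members above the line thus depended on the threshold and scale. With TPM, 3 of the 7 members that passed the filter differed at least 2-fold, HLA-DRA, HLA-DRB1 and HLA-DMA, each higher in H596, while HLA-DPB1, left out by the filter, was lower at -1.12. When genes were kept only from a mean FPKM of 5 upwards it was 0, because HLA-DRB1 was then not among the 3 members compared. The differences of the 8 members with counts kept their sign under all 5 alternatives run for each, including TMM scaling and centring on the median. HLA-DRB1 ranged from 2.25 to 3.55, HLA-DPB1 from -1.74 to -0.85, CD74 from -0.70 to -0.40, and CIITA from 0.097 to 0.41. Depth limits HLA-DRB1 in H2087, with 28 counts, and the DQ genes. No paired analysis was possible because H2087 and H596 are represented by single libraries, which also means that none could be left out.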

Other observations

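Over the 2 libraries, the genes nearest to CIITA in log2(FPKM + 1) were C16orf95, ZNF529 and GPR180, with Euclidean distances of 0.010 to 0.023. Those nearest to HLA-DRA were RNF141, INTS3 and IER5, at 0.0062 to 0.048, and those nearest to CD74 were PEBP1, NDUFAB1 and ARHGDIA, at 0.065 to 0.11. Within a distance of 0.1 there were 16 genes for CIITA, 19 for HLA-DRA and 2 for CD74.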
